A study of Mus musculus with 24 samples.

Results

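The mitotic spindle and cytokinesis genes were 47 listed genes whose products drive entry into mitosis, build the spindle, hold chromosomes to it, separate them and divide the cell. Each was matched by symbol to 1 Ensembl identifier among the 63862 genes listed in the files, and each was followed gene by gene through cultured lacrimal gland stem cell (LGSC) spheres and through embryonic and adult lacrimal gland (LG). RNA sequencing of 20 libraries was compared. LGSC spheres at passage 2 were taken at culture day 5 (2 libraries), day 7, day 10 and day 14 (3 each), and LG was taken at E17.5 and E19.5, where E stands for embryonic day, and from the adult (3 each). All material came from C57BL/6 mice with no transgene or gene edit named. The spheres were grown from dissociated LG cells of mice aged 6 to 8 weeks, in Matrigel with a serum-free medium that held N2, B27, EGF, FGF10, Wnt3A and the ROCK inhibitor Y-27632 on every day of culture. The age of the adult LG donors was not given in the labels, LG is a whole tissue of several cell types, and nothing says whether replicates came from separate animals or cultures. P-values therefore measure the spread between these libraries, which may be technical. A further library of LGSC spheres at passage 10 and day 7 was read as values only.

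Mitosis begins when cyclin-dependent kinase 1 bound to a B-type cyclin becomes active, and it ends when the anaphase promoting complex destroys that cyclin. Between these points kinetochores bind spindle microtubules, a checkpoint delays separation until every chromosome is attached, and kinesin motors and the midzone proteins then position the cleavage furrow. Most of these genes are transcribed in the G2 and M phases and are silent in resting cells, and their RNA is widely used as a mark of dividing cells. In the LG, epithelial buds divide and branch before birth, whereas most acinar cells of the adult gland are quiescent. In bulk RNA fewer dividing cells and less RNA per dividing cell cannot be told apart.

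Values are FPKM, that is fragments scaled to gene length and to library size, which puts genes on 1 scale, although many genes were recorded far lower here than in the passage 10 library, so an order of levels between genes holds for these tables alone. Dividing by the step that 1 read is worth gave 6434734 to 9258020 reads per library. All 47 genes were listed, but their values beside those of the passage 10 library spread widely, with no gap at the limit of 0.1 used below. Incenp, the scaffold of the chromosomal passenger complex, and Kif11, the plus-end-directed motor that pushes spindle poles apart, were at 0 in all 20 libraries and were not measured, which left 45. The passage 10 library, whose values were made against another gene list, held 26.9 FPKM of Incenp and 14.2 FPKM of Kif11. In all, 19 of the 47 genes had a day 7 mean under 0.1 of the passage 10 value, and the median of that ratio was 0.0147 among them against 1.71 among the other 28. The same held for 4172 of 8749 genes (47.7%) with at least 4 FPKM in the passage 10 library, beside 19 of the 45 mitotic genes (42.2%) with that level, a share near that of all genes. The genes nearest to that limit were Birc5 (0.107), Ncapg (0.119) and Cdk1 (0.0857). What set these ratios was not tested.

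**Figure D1:**
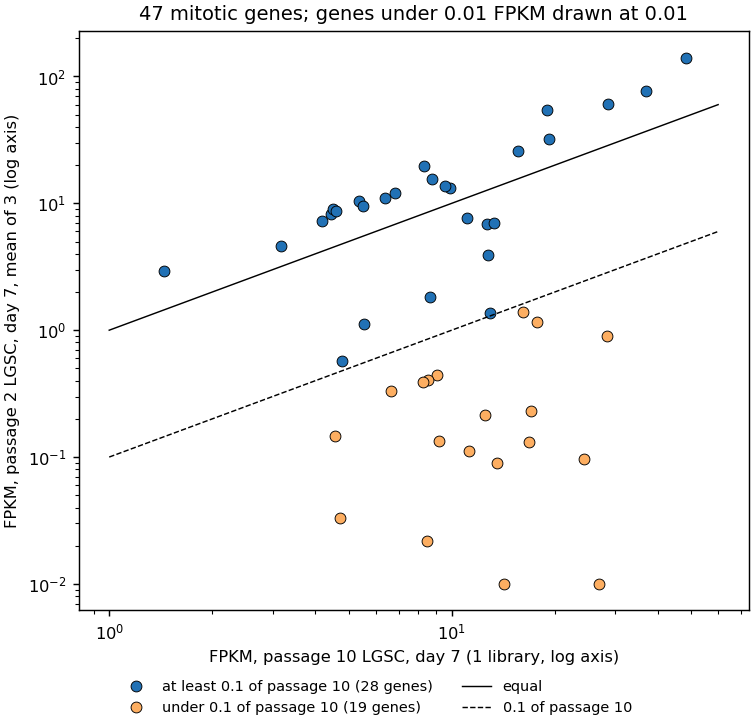
FPKM of the 47 mitotic genes in the passage 10 LGSC library at day 7 (x axis, log scale, 1 library) against the mean of the 3 passage 2 libraries at day 7 (y axis, log scale). The solid line marks equal values and the dashed line 0.1 of the passage 10 value, with 19 genes below the dashed line, among them Incenp and Kif11 drawn at 0.01, and 28 above it. Cdk1 and Tpx2 lie just below that line and Birc5 and Ncapg just above it, with no gap between.

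A gene was tested where its mean over the libraries of the fit was at least 0.5 FPKM. Of the 47 genes, 32 passed over all 20 libraries and 15 did not. Besides Incenp and Kif11 the 15 were the cyclin Ccna2, the phosphatase Cdc25c, the kinases Aurka, Aurkb and Ttk, the passenger complex subunit Cdca8, the kinesins Kif20a, Kif20b and Kif22, the spindle protein Ckap2, the midzone organiser Prc1, the furrow exchange factor Ect2 and the condensin subunit Smc4. Their highest group mean was 0.733 FPKM, against 4.57 to 26.9 FPKM in the passage 10 library. Kif22 alone among the 15 reached 0.5 FPKM over the 9 LG libraries (mean 0.514), and it is counted there only. The other 14 entered no test with this filter, and their values are given only as recorded. Of the 32 that passed, Cdk1, Kif23, Tpx2 and Top2a also lay under 0.1 of the passage 10 value, and 28 lay above it. On the study's own list of genes that differed between day 7 and day 14 stood 21 of the 47 genes. Its choice used these libraries, so the fall of those 21 with culture time is not independent evidence, and they are counted apart below.

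The start sites of these genes carry shared short elements, which are shown because most of the measured genes moved together. The cell cycle genes homology region, bound by the MuvB complexes, reads TTTGAA, and the CCAAT box is bound by NF-Y. RefSeq windows (GRCm38.p6) of 300 bases, which end 50 bases after the start, were given for 39 of the 47 genes and 27025 genes in all, and the first window of each gene was searched on both strands. TTTGAA stood in 32 of the 39 windows (82.1%) and in 18.1% of all windows. Within 50 bases of the start it stood in 29 of the 39 (74.4%), beside 4.92% of all. At least 2 CCAAT boxes were found in 19 windows (48.7%), beside 12.2% of all, and both features together in 17 (43.6%), beside 2.19%. The related TTTAAA was in 28.2% of the mitotic windows and 13.2% of all, and TTCCCGC, a core of E2F sites, in 2.56% and 4.66%. A match describes letters in a window and not a bound site. From 100 bases before to 30 after the start, the 5 genes with both features and the highest levels read as follows, 5′ to 3′ on the coding strand, with both elements, or their reverse complements, in capitals.
Cdc20, chr4:118437314-118437443, minus strand: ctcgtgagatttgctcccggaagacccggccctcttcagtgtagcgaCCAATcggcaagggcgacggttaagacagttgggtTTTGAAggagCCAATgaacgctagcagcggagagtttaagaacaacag
Ccnb2, chr9:70421525-70421654, minus strand: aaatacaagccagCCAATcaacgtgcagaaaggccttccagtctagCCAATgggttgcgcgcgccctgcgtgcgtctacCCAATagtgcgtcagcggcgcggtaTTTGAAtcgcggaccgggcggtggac
Ube2c, chr2:164769829-164769958, plus strand: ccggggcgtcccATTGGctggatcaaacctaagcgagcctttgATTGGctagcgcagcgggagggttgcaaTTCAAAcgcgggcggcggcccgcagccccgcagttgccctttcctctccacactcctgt
Spc25, chr2:69206184-69206313, minus strand: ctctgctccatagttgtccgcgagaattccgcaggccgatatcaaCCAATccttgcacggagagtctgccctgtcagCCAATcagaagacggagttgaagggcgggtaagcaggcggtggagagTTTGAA
Kif18b, chr11:102925095-102925224, minus strand: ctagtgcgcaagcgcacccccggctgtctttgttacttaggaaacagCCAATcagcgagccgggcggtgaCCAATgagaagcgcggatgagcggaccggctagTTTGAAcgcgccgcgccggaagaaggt
Counted from the start, with -1 the base just before it, the TTTGAA of Cdc20 began at -18, between CCAAT boxes that began at -53 and -8. Ccnb2 had CCAAT boxes that began at -87, -54 and -21, evenly spaced, and TTTGAA from base 5 after the start. Spc25 and Kif18b likewise had their CCAAT boxes upstream and TTTGAA downstream of the start. Ube2c alone among the 5 carried all of these elements on the reverse strand.

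Across the 28 genes that passed the filter and were not under 0.1 of the passage 10 value, the level was high before birth, fell through culture and was low in the adult gland. Their summed level was 1063, 1086 and 1153 FPKM at E17.5, and 983.7, 1001 and 1182 FPKM at E19.5. In LGSC spheres it was 825.8 and 906.8 FPKM at day 5, 448.9, 847.5 and 407 FPKM at day 7, 245.5, 625.7 and 330.9 FPKM at day 10, and 148.2, 237.1 and 167.8 FPKM at day 14. In adult LG it was 53.9, 55.2 and 59.6 FPKM. The embryonic and day 5 libraries thus lay above every later culture library except that day 7 replicate 2 lay between the day 5 libraries, and every sphere library lay above every adult one. The mean of log2(FPKM + 1) over the 28 genes gave the same order, from 4.58 ± 0.05 at E17.5 and 4.52 ± 0.13 at E19.5 through 4.07 ± 0.08 (n = 2), 3.47 ± 0.41, 3.05 ± 0.50 and 2.27 ± 0.30 at day 5, 7, 10 and 14 to 1.12 ± 0.07 in the adult (SD, n = 3 unless stated). Replicate 2 was the highest library for 25, 28 and 27 of the 28 genes at day 7, 10 and 14, whereas it was the highest for 40.3%, 40.6% and 37.0% of all genes in the culture fit. The same libraries held the lowest summed level of 7 epithelial markers, of which 2, Epcam and Krt8, were at 0 in all 20 libraries. The sums were 595, 623 and 550 FPKM in replicate 2 against 1380 to 2630 FPKM in the other libraries of those days. The part of this in the mitotic levels was not tested.

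**Figure D2:**
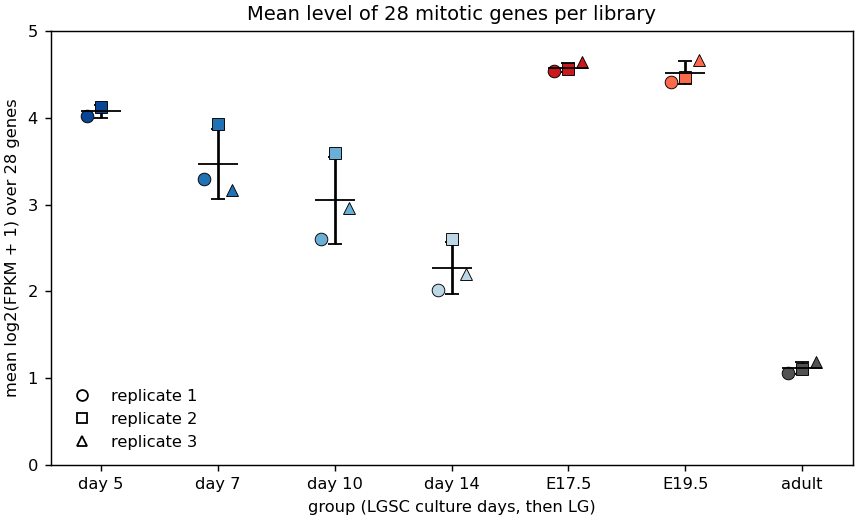
Mean log2(FPKM + 1) of 28 mitotic genes (y axis) in each library, by group (x axis), with circles, squares and triangles for replicates 1, 2 and 3 and the bar for the group mean ± SD. Embryonic LG lies between 4.42 and 4.67, LGSC spheres run from 4.13 at day 5 to 2.01 at day 14, adult LG lies between 1.06 and 1.19, and the squares of day 7, 10 and 14 stand above their groups.

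**Figure D3:**
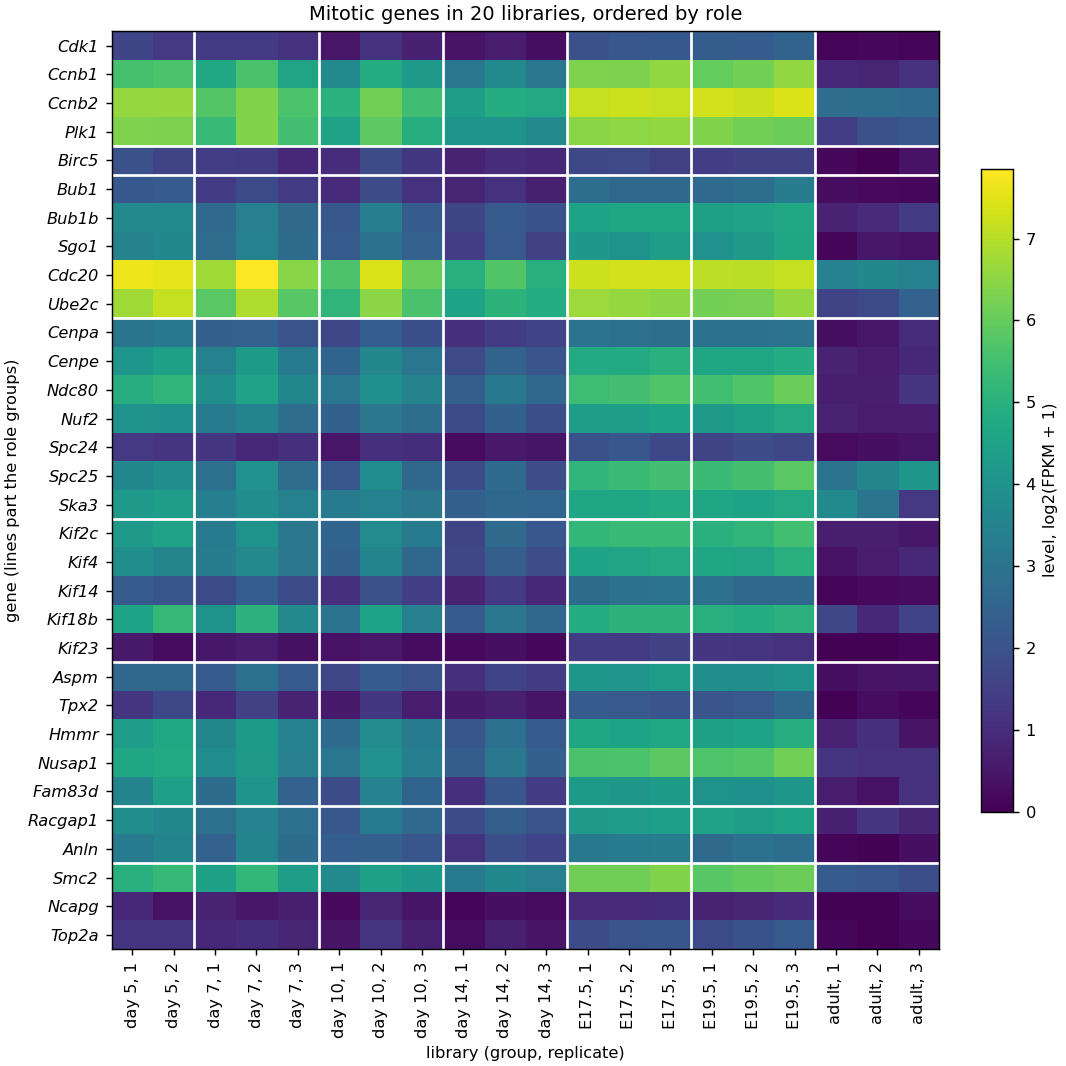
Level, as log2(FPKM + 1), of the 32 tested mitotic genes (rows, parted by role) in the 20 libraries (columns, parted by group). Most rows are bright at E17.5 and E19.5, fade from day 5 to day 14 and are dark in the adult, with Spc25 and Ska3 brighter in the adult than the rest of their role group.

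Among the genes that drive mitotic entry, Ccnb2 (ENSMUSG00000032218), a B-type cyclin, had the highest level. It was at 143, 151 and 143 FPKM at E17.5, 158, 148 and 172 FPKM at E19.5 and 5.96, 6.18 and 5.74 FPKM in the adult. In spheres it was at 97.01 and 98.3 FPKM at day 5, 52.3, 81.5 and 48.3 FPKM at day 7, 31.6, 70.7 and 42.1 FPKM at day 10 and 19.6, 28.1 and 25.5 FPKM at day 14. No embryonic library overlapped a sphere library, and no sphere library overlapped an adult one. Plk1 (ENSMUSG00000030867), the polo-like kinase of centrosome maturation and mitotic exit, was at 86.6, 90.9 and 95.5 FPKM at E17.5, 80.98, 71.2 and 67.0 FPKM at E19.5 and 1.697, 2.87 and 3.399 FPKM in the adult. In spheres it was at 78.8 and 77.5 FPKM at day 5, 38.95, 81.7 and 44.1 FPKM at day 7, 22.1, 59.1 and 28.97 FPKM at day 10 and 15.7, 15.8 and 12.04 FPKM at day 14. Unlike Ccnb2, its day 5 libraries lay within the range of E19.5. Ccnb1, the other B-type cyclin, had the widest embryo to adult difference of the 33 genes tested in tissue, with 78.9, 77.7 and 94.6 FPKM at E17.5 and 0.885, 0.748 and 1.18 FPKM in the adult. Cdk1, their kinase partner, was at 2.84, 3.34 and 3.52 FPKM at E17.5 and 0.08401, 0.128 and 0.0797 FPKM in the adult, low beside its 16.2 FPKM in the passage 10 library.

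The checkpoint and anaphase promoting complex partners held Cdc20, the most abundant of the 47 genes in all 11 sphere libraries and at E17.5, whereas Ccnb2 was the highest in all 3 E19.5 libraries and Ska3, Cdc20 and Spc25 in 1 adult library each. Cdc20 (ENSMUSG00000006398), the activator that turns on the anaphase promoting complex, was at 201 and 189 FPKM at day 5, 106, 229.8 and 87.2 FPKM at day 7, 49.4, 171 and 65.2 FPKM at day 10 and 30.1, 51.4 and 29.2 FPKM at day 14. In LG it was at 152, 157 and 159 FPKM at E17.5, 134, 129 and 142 FPKM at E19.5 and 10.2, 11.5 and 9.83 FPKM in the adult. Both day 5 libraries and replicate 2 of day 7 and of day 10 lay above every embryonic library. Ube2c (ENSMUSG00000001403), the ubiquitin-conjugating enzyme of the same complex, was at 106 and 141 FPKM at day 5, 56.3, 119.8 and 54.6 FPKM at day 7, 34.5, 87.99 and 47.5 FPKM at day 10 and 22.3, 32.5 and 28.1 FPKM at day 14. It was at 102, 96.5 and 88.8 FPKM at E17.5, 73.4, 74.3 and 97.2 FPKM at E19.5 and 2.07, 2.43 and 4.54 FPKM in the adult, so its day 5 libraries also lay above all 6 embryonic ones. The checkpoint kinase Bub1, its relative Bub1b and Sgo1, which protects centromeric cohesin, instead stood higher in the embryo. Bub1b was at 22.6, 24.1 and 23.8 FPKM at E17.5 and 11.99 and 12.2 FPKM at day 5, and Sgo1 at 17.1, 15.2 and 19.98 FPKM and 10.3 and 11.7 FPKM.

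All 7 kinetochore and centromere genes passed the filter. Ndc80 (ENSMUSG00000024056), the microtubule-binding subunit of the outer kinetochore, was at 28.96 and 34.5 FPKM at day 5, 13.98, 21.9 and 11.1 FPKM at day 7, 7.45, 14.4 and 10.3 FPKM at day 10 and 4.18, 7.96 and 5.19 FPKM at day 14. It was at 41.99, 44.3 and 52.1 FPKM at E17.5, 43.03, 51.95 and 67.1 FPKM at E19.5 and 0.565, 0.573 and 1.25 FPKM in the adult, with no overlap between embryo, spheres and adult. Spc25 (ENSMUSG00000005233), a subunit of the same Ndc80 complex, departed from this order in FPKM. In spheres it was at 11.6 and 14.2 FPKM at day 5, 6.47, 14.7 and 5.99 FPKM at day 7, 3.403, 13.2 and 5.29 FPKM at day 10 and 2.53, 5.75 and 2.604 FPKM at day 14. It was at 34.8, 39.5 and 44.1 FPKM at E17.5, 39.5, 45.6 and 56.6 FPKM at E19.5 and 6.89, 10.8 and 16.7 FPKM in the adult. In FPKM every adult library thus lay above every day 14 library. In recovered reads of Spc25 these groups overlapped, with 53 to 406 reads in the adult and 69 to 163 at day 14, so that place depends on the scale. Ska3 (ENSMUSG00000021965), of the complex that couples kinetochores to shortening microtubules, had adult libraries far apart at 12.4, 7.11 and 1.45 FPKM, beside 4.31, 5.28 and 4.89 FPKM at day 14 and 23.6, 23.4 and 26.98 FPKM at E17.5. Nuf2 and Spc24, the other Ndc80 complex subunits, were at 0.719, 0.547 and 0.517 FPKM and 0.161, 0.245 and 0.357 FPKM in the adult. The subunits of 1 complex thus differed in adult level, with Spc25 above the rest in all 3 libraries.

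**Figure D4:**
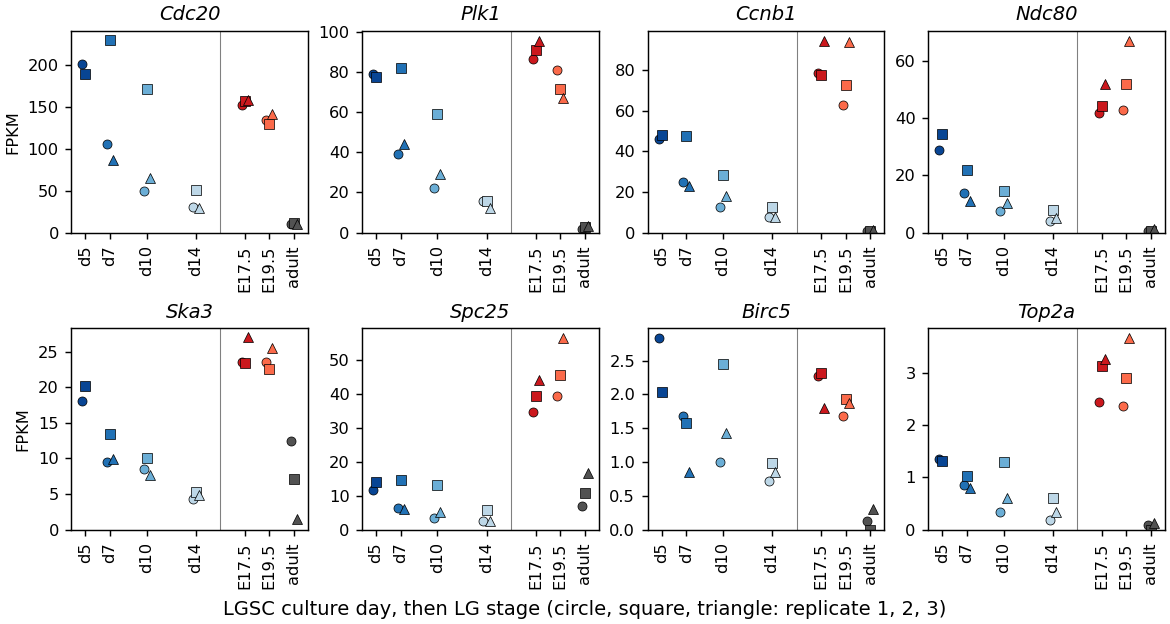
FPKM (y axis, linear from 0) of 8 mitotic genes in each library, by LGSC culture day and then LG stage (x axis), with circle, square and triangle for replicates 1, 2 and 3. Cdc20, Plk1, Ccnb1 and Ndc80 fall with culture day and lie near 0 in the adult, Spc25 lies well above 0 in all adult libraries and Ska3 in 2 of them, and Birc5 and Top2a lie below 4 FPKM throughout.

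Of the 9 kinesin motors, 5 passed the filter over 20 libraries. Kif18b (ENSMUSG00000051378), a motor that shortens astral microtubules, was at 22.6 and 36.5 FPKM at day 5, 15.0, 31.8 and 12.1 FPKM at day 7, 6.96, 22.5 and 9.68 FPKM at day 10 and 3.801, 7.68 and 5.19 FPKM at day 14. It was at 27.9, 32.8 and 32.6 FPKM at E17.5, 29.3, 28.2 and 31.8 FPKM at E19.5 and 2.21, 0.883 and 1.98 FPKM in the adult. Its day 5 libraries spanned the embryonic range, and day 7 replicate 2 lay within it. Kif2c (ENSMUSG00000028678), which corrects faulty attachments by shortening microtubules, was at 17.8 and 21.9 FPKM at day 5, 8.59, 15.1 and 7.63 FPKM at day 7, 4.74, 12.8 and 8.48 FPKM at day 10 and 2.06, 5.56 and 3.39 FPKM at day 14. It was at 35.6, 38.7 and 37.8 FPKM at E17.5, 30.7, 34.2 and 43.3 FPKM at E19.5 and 0.5701, 0.578 and 0.421 FPKM in the adult, above every sphere library in both embryonic groups. The chromokinesin Kif4 and Kif14, a motor of the late midbody, kept the same order at lower levels, with group means of at most 25.2 and 6.49 FPKM. Kif23, the motor of centralspindlin, did not exceed 1.90 FPKM in any of the 20 libraries and was at 8.54 FPKM in the passage 10 library.

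Among spindle assembly and spindle pole proteins, Nusap1 (ENSMUSG00000027306), which bundles microtubules near chromosomes, was at 23.8 and 26.1 FPKM at day 5, 13.1, 18.1 and 9.74 FPKM at day 7, 7.52, 14.6 and 9.54 FPKM at day 10 and 4.01, 7.83 and 4.48 FPKM at day 14. It was at 47.3, 48.4 and 58.2 FPKM at E17.5, 50.9, 53.02 and 71.3 FPKM at E19.5 and 1.33, 1.17 and 1.23 FPKM in the adult. Hmmr (ENSMUSG00000020330), a hyaluronan receptor that also acts at spindle poles, was at 18.6 and 24.8 FPKM at day 5, 11.2, 18.6 and 9.89 FPKM at day 7, 5.72, 12.7 and 8.64 FPKM at day 10 and 3.24, 6.25 and 3.63 FPKM at day 14. It was at 23.7, 22.6 and 25.1 FPKM at E17.5, 20.8, 22.4 and 28.5 FPKM at E19.5 and 0.687, 1.103 and 0.338 FPKM in the adult. The embryonic range of Nusap1 stood clear of all spheres, whereas that of Hmmr held one of its day 5 libraries. Aspm, the spindle pole protein whose loss gives small brains, was at 16.7, 16.02 and 19.9 FPKM at E17.5 and 5.26 and 5.14 FPKM at day 5. Fam83d, which places spindles by recruiting casein kinase, had day 5 libraries apart from each other at 10.7 and 20.8 FPKM.

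At the midzone and the cleavage furrow, Racgap1 (ENSMUSG00000023015), the GTPase-activating subunit of centralspindlin, was at 13.9 and 11.3 FPKM at day 5, 6.42, 10.3 and 6.34 FPKM at day 7, 3.34, 8.55 and 5.47 FPKM at day 10 and 2.504, 4.21 and 3.15 FPKM at day 14. It was at 17.6, 18.7 and 20.5 FPKM at E17.5, 22.02, 19.9 and 22.5 FPKM at E19.5 and 0.644, 1.38 and 0.778 FPKM in the adult, again with embryo, spheres and adult apart. Anln (ENSMUSG00000036777), the anillin scaffold of the contractile ring, was at 8.28 and 10.6 FPKM at day 5, 4.56, 10.7 and 5.79 FPKM at day 7, 4.08, 4.31 and 3.32 FPKM at day 10 and 1.24, 2.67 and 1.98 FPKM at day 14. It was at 8.11, 8.62 and 8.76 FPKM at E17.5, 5.57, 6.65 and 6.15 FPKM at E19.5 and 0.0915, 0.0348 and 0.2604 FPKM in the adult. Day 5 replicate 2 and day 7 replicate 2 were the highest of the 20 Anln libraries. Of the chromosome structure genes, Smc2 (ENSMUSG00000028312), a condensin ATPase, was at 29.1 and 37.4 FPKM at day 5, 21.4, 35.7 and 20.1 FPKM at day 7, 12.4, 21.6 and 17.3 FPKM at day 10 and 8.64, 11.7 and 9.66 FPKM at day 14. It was at 70.5, 69.5 and 81.6 FPKM at E17.5, 55.6, 61.2 and 66.98 FPKM at E19.5 and 3.71, 3.34 and 2.66 FPKM in the adult. Its condensin partner Smc4 stayed at or below 0.174 FPKM in all 20 libraries and was at 24.4 FPKM in the passage 10 library, so the partners of 1 heterodimer fell on opposite sides of the 0.1 limit.

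The lowest levels among tested genes were read with more caution. Birc5 (ENSMUSG00000017716), survivin of the chromosomal passenger complex, was at 2.83 and 2.04 FPKM at day 5, 1.68, 1.58 and 0.853 FPKM at day 7, 0.997, 2.44 and 1.43 FPKM at day 10 and 0.726, 0.991 and 0.849 FPKM at day 14. In LG it was at 2.27, 2.32 and 1.80 FPKM at E17.5, 1.68, 1.93 and 1.87 FPKM at E19.5 and 0.122, 0 and 0.308 FPKM in the adult. Its day 5, day 10 and embryonic ranges overlapped. Top2a (ENSMUSG00000020914), the topoisomerase that untangles sister chromosomes, was at 1.36 and 1.31 FPKM at day 5, 0.863, 1.04 and 0.793 FPKM at day 7, 0.339, 1.297 and 0.616 FPKM at day 10 and 0.187, 0.611 and 0.334 FPKM at day 14. It was at 2.45, 3.14 and 3.27 FPKM at E17.5, 2.37, 2.91 and 3.68 FPKM at E19.5 and 0.09198, 0 and 0.131 FPKM in the adult, and at 28.4 FPKM in the passage 10 library. Every embryonic library of Top2a lay above every sphere library. Cdca8, the passenger complex subunit borealin, was under the filter with group means of at most 0.464 FPKM.

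The first comparison asked whether the mitotic genes changed with time in culture, as a slope of log2(FPKM + 1) per culture day over the 11 sphere libraries. Of the 30 genes tested in this fit, 26 fell and 0 rose (limma, adjusted p under 0.05), whereas 1.5% of the 15584 genes tested fell and 0.648% rose. The median slope of the 30 genes was -0.197 per day and that of all genes 0. The steepest were Cdc20 (-0.26 ± 0.05 SE, adjusted p = 0.0278), Plk1 (-0.26 ± 0.04, adjusted p = 0.011) and Fam83d (-0.26 ± 0.06, adjusted p = 0.0419). The shallowest were Birc5 (-0.08 ± 0.03, adjusted p = 0.161), Top2a (-0.08 ± 0.02, adjusted p = 0.08) and Tpx2, the activator of Aurora A (-0.09 ± 0.03, adjusted p = 0.102). These 3 and Spc25 (adjusted p = 0.0871) did not pass. By role, 4 of 4 entry genes, 5 of 5 checkpoint partners, 6 of 7 kinetochore genes, 4 of 4 kinesins, 4 of 5 spindle assembly genes, 2 of 2 furrow genes, 1 of 2 chromosome structure genes and 0 of 1 passenger complex genes fell. All 21 genes of the study's own list fell, which is not independent evidence, and 5 of the 9 tested genes off that list did. The replicate numbers were taken to pair the culture libraries. With the number as a block 29 of the 30 fell, all but Birc5, beside 5.02% of genes called in either direction. Group means fell at every step from day 5 to day 14 for 29 of the 30 genes, all but Birc5, against 13.2% of all 15584 genes. The count rested on single libraries, since it was 1 without day 5 replicate 1 and 3 without day 14 replicate 3, and it was 0 over days 7, 10 and 14 alone.

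Set between the ends of the course, the day 14 mean was a median 0.221 of the day 5 mean over the 28 genes named above, from 0.127 to 0.351. In the culture fit of day 14 against day 5, all 30 tested genes were lower with no overlap between the libraries, beside 17.8% of all genes, and all 30 had an unadjusted p under 0.05 beside 17.3%. Only Ska3 passed after adjustment (log2 difference -1.79 ± 0.19, adjusted p = 0.0486), 1 of 2 genes called among all (0.0128%). With the replicate block 24 passed, beside 1.76% of all genes, the other 6 being Cdk1, Birc5, Spc24, Kif14, Tpx2 and Top2a. In a fit of all 20 libraries 27 of 32 tested genes passed, beside 1.5% of 18288 genes. That fit shares its spread with the LG libraries, so its counts here and below do not rest on the spread of the culture libraries alone. The SD of the mean level of the 28 genes was 0.05 to 0.13 in LG against 0.3 to 0.5 at day 7, 10 and 14. Day 14 against day 7, the comparison from which the study's list came, gave 0 calls among the 30 and 0 among all 15584 genes by limma. The study used DESeq2, whereas limma was run here on log2(FPKM + 1), so these counts do not test that list. Of the 30, 28 had an unadjusted p under 0.05 by limma, beside 10.4% of genes. Between day 14 and day 7, 29 of the 30 did not overlap, beside 9.26% that were lower in this way, Birc5 being the exception. With the block 6 passed (Ccnb1, Sgo1, Cenpe, Ska3, Hmmr and Smc2, adjusted p 0.0456 to 0.0465), beside 0.148% of genes, and in the fit of 20 libraries 11 of 32 did, beside 0.175%. The log2 differences from day 7 ran from -1.82 for Cdc20 to -0.34 for Birc5. No mitotic gene passed between day 5 and 7, 7 and 10 or 10 and 14 in the fit of 20 libraries, where 0%, 0% and 0.00547% of genes were called lower.

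The second comparison asked how the embryonic gland differed from the adult. At E17.5, 32 of 33 tested genes were higher than in the adult, beside 29.1% of 18578 genes, and at E19.5 all 33 were, beside 30.3%. Of these genes 13 had an adult mean under 0.5 FPKM and reached the filter only with the embryonic libraries, so their direction was largely set by it. The other 20 were all higher at both stages. The exception at E17.5 was Kif22, a chromokinesin at a mean of 0.481 FPKM (0.16 ± 0.14, adjusted p = 0.355). The median log2 difference was 3.57 at E17.5, beside 0.05 over all genes. Over the 28 genes the E17.5 mean was a median 32.7 times the adult mean, from 3.44 times for Spc25 to 89.3 times for Ccnb1. Ccnb1 differed by 5.45 ± 0.18 (adjusted p = 2.28e-07) and Ndc80 by 4.73 ± 0.21 (adjusted p = 9.62e-07). Spc25 differed by 1.77 ± 0.28 (adjusted p = 0.000882) and Ska3 by 1.99 ± 0.51 (adjusted p = 0.0106). Adult replicates 1 and 2 stood apart, with 60.4% and 59.6% of reads in 10 genes against 31.3% in replicate 3 and at most 8.1% elsewhere. Without both, 1 adult library is left and the adult has no spread of its own, so calls are not counted for that setting. In adult replicate 3 alone Spc25 and Ska3 were at 16.7 and 1.45 FPKM, below every embryonic library. Scaled to recovered reads, Spc25 and Ska3 differed by 2.63 and 2.85 at E17.5. The adult libraries held 247000 to 1550000 FPKM of 5 acinar secretory genes and 164 to 323 FPKM of 7 mesenchymal genes, and the embryonic ones 4700 to 5680 FPKM of the latter. The part of this mixture in the mitotic levels was not tested.

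Between E17.5 and E19.5 no mitotic gene passed by limma (0 of 33), with 1, Anln, at an unadjusted p under 0.05, beside 1.74% of genes called and 15.3% at that unadjusted p. In a fit of these 6 libraries alone Anln was called (adjusted p = 0.0332). The differences ran from -0.42 ± 0.13 for Anln, -0.32 ± 0.19 for Plk1 and -0.27 ± 0.15 for Smc2 to 0.24 ± 0.18 for Bub1, 0.25 ± 0.28 for Spc25 and 0.28 ± 0.13 for Cdk1, with adjusted p from 0.174 for Anln upward. The median was -0.06, beside 0.02 for all genes. The libraries of 2 genes, Cdk1 and Kif22, lay wholly higher at E19.5 and those of 7 wholly lower, beside 19.8% and 15.3% of all genes.

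The third comparison set proliferation in culture beside that in the embryo. At day 5, the earliest culture time, 12 of 32 genes were lower than at E17.5 and 0 higher in the fit of 20 libraries, where 19.9% of 18288 genes were lower at day 5 and 12.3% higher. The 12 were Cdk1, Bub1b, Spc24, Spc25, Kif4, Kif14, Kif23, Aspm, Tpx2, Nusap1, Smc2 and Top2a. Kif23 and Ncapg reached the filter only with the embryonic libraries (0.251 and 0.343 FPKM over the other 14). Their lower levels in spheres were thus set by the filter and are no support, which includes Kif23 among the 12 at day 5. Without both, 24 of 30 genes were lower than at E17.5 at day 7 and 30 of 30 at day 14. For 5 genes, Cdc20, Ube2c, Birc5, Anln and Cenpa, the centromeric histone, the day 5 mean exceeded both embryonic means. Over the 28 genes the E17.5 mean was a median 1.5 times the day 5 mean, from 0.774 to 3.37. At day 7, 25 of 32 genes were lower than at E17.5, beside 22.6% of genes, and at day 14 all 32 were, beside 24.3% against E17.5 and 26.8% against E19.5. The largest differences at day 7 were those of Spc25 (-2.10 ± 0.41, adjusted p = 0.00074), Nusap1 (-1.87 ± 0.26, adjusted p = 2.2e-05) and Kif2c (-1.80 ± 0.31, adjusted p = 0.000227). The smallest were those of Cdc20 (-0.28 ± 0.38, adjusted p = 0.63), Anln (-0.32 ± 0.23, adjusted p = 0.318) and Ncapg, a condensin subunit at low level (-0.33 ± 0.16, adjusted p = 0.125). Plk1, Birc5, Ube2c and Kif18b also did not pass at day 7. By role, 3 of 4 entry genes, 0 of 1 passenger complex genes, 3 of 5 checkpoint partners, 7 of 7 kinetochore genes, 4 of 5 kinesins, 5 of 5 spindle assembly genes, 1 of 2 furrow genes and 2 of 3 chromosome structure genes were lower, and differences between roles were not tested. By day 14 the median difference from E17.5 was -2.29, with Spc25 (-3.19), Kif2c (-3.11) and Ccnb1 (-3.09) the lowest. The spheres held at most 1.41 FPKM of the mesenchymal genes, 0.364 of endothelial and 2.74 of leukocyte markers, so embryonic LG included cell types that the spheres lacked, and mitotic RNA of those cells cannot be told apart from that of the epithelium. Of the 7 epithelial markers, Epcam and Krt8 were at 0 in all 20 libraries and so were not measured, although the study stained Epcam protein in its spheres.

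**Figure D5:**
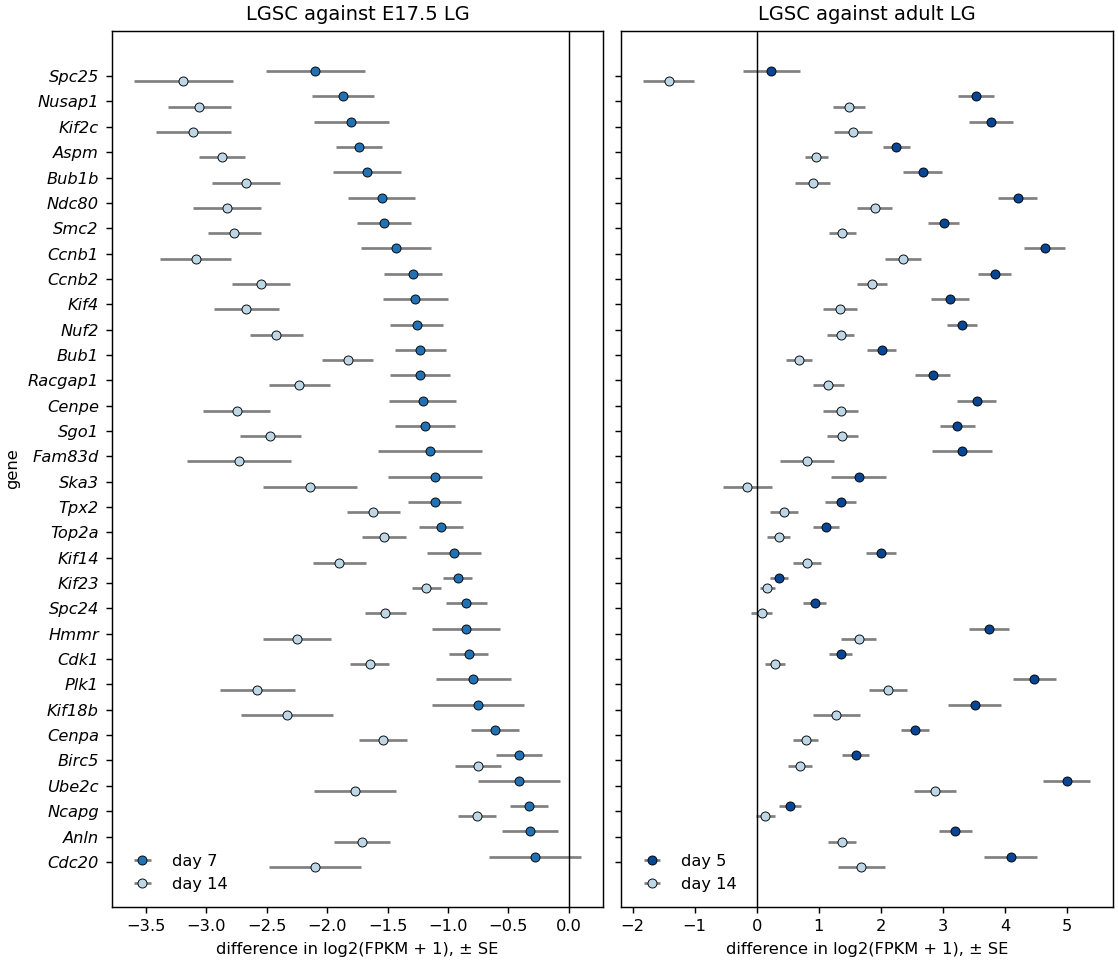
Difference in log2(FPKM + 1) with its standard error (x axis) for the 32 tested mitotic genes (y axis), for LGSC spheres at day 7 and 14 against E17.5 LG (left) and at day 5 and 14 against adult LG (right). At day 14 every gene lies left of 0 against E17.5, and Spc25 lies furthest to the left in both panels.

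The last comparison set the spheres beside the adult gland from which such cells are grown. At day 5, 31 of 32 genes were higher than in adult LG, beside 19.8% of genes, and at day 7, 30 were, beside 20.8%. Spc25 passed at neither day (0.23 ± 0.46 and -0.33 ± 0.41) and Ska3 not at day 7 (0.88 ± 0.39, adjusted p = 0.0792). With every library scaled by its recovered reads, Ska3 was called at day 7 (1.83, adjusted p = 5.55e-06), and Spc25 was at 1.00 and 0.62 without passing. Cdk1, Birc5, Bub1, Sgo1, Spc24, Kif14, Kif23, Aspm, Tpx2, Anln, Ncapg and Top2a had adult means under 0.5 FPKM. They reached the filter only with sphere or embryonic libraries, so their direction against the adult was largely set by it on every culture day. Of the other tested genes, all but Spc25 were higher at day 5, and all but Spc25 and Ska3 at day 7, as deposited. At day 14, 23 were still higher, beside 19.6% of genes, and 1 was lower, beside 24.9%. The 23 include Birc5, Bub1, Sgo1, Kif14, Aspm and Anln, whose direction was largely set by the filter. Scaled by recovered reads, 28 were higher and 0 lower, beside 47.6% of genes higher, with Cdk1, Tpx2, Fam83d, Top2a and Ska3 added. The highest differences were those of Ube2c (2.87 ± 0.34, adjusted p = 3.89e-06), Ccnb1 (2.36 ± 0.29, adjusted p = 7.14e-06) and Plk1 (2.11 ± 0.31, adjusted p = 4.11e-05). The gene that was lower was Spc25 (-1.42 ± 0.41, adjusted p = 0.0106). It did not pass with that scaling (-0.43, adjusted p = 0.444). Ska3 (-0.15 ± 0.39, adjusted p = 0.791) turned to 0.84 with that scaling (adjusted p = 0.00509) and to 1.24 without adult replicates 1 and 2. Spc24 (0.08 ± 0.17) did not differ beyond its spread. The recovered reads were 2.667 and 2.567 times the scale of the deposited values in adult replicates 1 and 2 against 1.103 in replicate 3. Without both, 17 genes were higher and 1 lower at day 14, beside 12.6% and 16.4% of genes. The comparisons with E17.5 and with adult LG share the sphere libraries.

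The order E17.5 and E19.5 above day 5, then day 7, day 10, day 14 and the adult held for the group means of 21 of the 32 genes. The highest mean was at E17.5 for 14 genes, at E19.5 for 13 and at day 5 for 5, and the lowest in the adult for 30 and at day 14 for Spc25 and Ska3. These last places depend on the scale, since by recovered reads the day 14 difference from the adult was -0.43 (adjusted p = 0.444) for Spc25 and 0.84 for Ska3. Neighbours in this order did not pass between E17.5 and E19.5 or between consecutive culture days for any gene. The genes named above with an adult mean under 0.5 FPKM reached the filter only with other libraries. Their lowest place in the adult was thus largely set by it, as was the highest place of Kif23 and Ncapg in the embryo. No share of all genes was computed for these orders, so the counts are a description.

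Lists of related genes, chosen beside the 47, were described by their counts. Of 55 other mitotic genes 30 were tested in culture, and 14 of them fell with culture day (1.5% of all genes did) and 0 rose, with a median slope of -0.09. At E17.5, 29 of 31 were higher than in the adult, beside 29.1% of genes, and at day 7, 23 of 31 were lower than at E17.5, beside 22.6%. Several of them, among them Cenpf, Ska1, Sgo2a, Mastl and Shcbp1, had adult means under 0.5 FPKM and reached the tissue filter only with the embryonic libraries. Their direction against the adult was largely set by it. Cenpu had a mean under 0.5 FPKM in every sphere and adult group, so its place against E17.5 was set likewise. Of 14 core subunits of the anaphase promoting complex, the ubiquitin ligase that Cdc20 and Ube2c serve, 8 were tested in culture and 0 passed in either direction (median slope -0.018, 1, Anapc11, at an unadjusted p under 0.05). At E17.5, 6 of 9 of them were higher than in the adult and 1, Anapc13, lower (-0.64 ± 0.23, adjusted p = 0.0393). Of 15 regulators of mitotic transcription, among them the MuvB subunits, B-Myb, FoxM1 and NF-Y, 1 of 10 fell with culture day, namely Mybl2, which encodes B-Myb (slope -0.099, adjusted p = 0.0397), and 7 of 9 were higher at E17.5 than in the adult. Foxm1 and Mybl2, with adult means of 0.0803 and 0.147 FPKM, also reached the tissue filter only with the embryonic libraries. At 0 in all 20 libraries stood 8 of the 55, among them Mki67, which encodes Ki67, a widely used proliferation antigen. Like Incenp and Kif11, these 8 were above 0 in the passage 10 library and so were not measured in the 20. Their values do not show that the RNA was absent, and the study stained Ki67 protein in its spheres.

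Over the 20 libraries the genes outside the list whose level ran most like the mean of the 28 genes were Prr11 (Pearson r = 0.994), Fanci, Sgo2a, Parpbp, Shcbp1, Rrm1, Ticrr, Cip2a, Brca1 and Ncaph (0.988), of 18256 ranked. These points share libraries and groups, so r is a description. Within the list the median r of the 28 genes with their own mean was 0.981, and the lowest were those of Spc25 (0.692) and Ska3 (0.834).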

How the data were processed

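Libraries of mouse LGSC spheres and LG were analysed for 21 of the 24 samples listed, of which 20 entered tests, and a day 5 replicate and passages 6 and 20 were not analysed here. The authors made poly-T selected libraries with the NEBNext Ultra kit, and their processing notes name HISAT2 2.0.5, featureCounts 1.5.0-p3 and the build NCBIM37. The authors deposited 1 FPKM table per library, and the step from counts to FPKM is not given in the sources used here. Gene symbols were looked up in GENCODE M21 for 52489 of 52636 Ensembl identifiers, and 11226 further assembled loci were left unnamed. Whole reads were recovered from the FPKM steps for 92.6% to 93.6% of genes (within 0.01, up to 1000 reads), 6434734 to 9258020 reads per library. Counting error at this depth limits genes under 0.5 FPKM.

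Tests used limma 3.58.1 in R 4.3.3 (lmFit, then eBayes with trend) on log2(FPKM + 1). Genes whose mean was 0.5 FPKM or more entered, with Benjamini-Hochberg adjustment over all genes tested and a threshold of 0.05. This scale understates changes of low genes. The culture fit held 11 libraries, the tissue fit 9 and the fit of spheres against LG 20. The fit was tested on simulated data for some of these comparisons, without the replicate block, limma-voom or paired replicates. The separate fit behind day 5 against E17.5 and consecutive culture days was not. Sums, motif searches and figures used Python 3.11.15, pandas 2.3.3, numpy 2.4.6 and matplotlib 3.10.9.

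The genes given in full were the 2 with the highest mean of the 7 group means in each role group. Named besides were the 3 highest and 3 lowest for the slope, for E19.5 against E17.5, day 7 against E17.5 and day 14 against the adult, those under the filter, and those that moved against the majority. Kif4, Kif14, Kif23, Aspm, Nuf2, Bub1b, Sgo1 and the others named were chosen after their values were seen. The 47 genes and the gene lists were chosen with earlier results of these data known. In culture, same-numbered libraries deviated alike (correlation of deviations from group means 0.26 to 0.72 over 15 pairs). Between different numbers it was -0.22 on average, from -0.61 to 0.44 over 30 pairs, so the ranges overlap. The numbers were taken to pair the culture libraries. In tissue, same-numbered libraries did not deviate alike (-0.08 to 0.07 over 9 pairs).

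Alternatives were a pseudocount of 0.1, no filter, scaling to recovered reads, limma-voom on recovered reads, the replicate block, leaving out each replicate, and only the groups compared. Chosen after seeing the data were limma-voom with the block, all 20 libraries in each fit, leaving out adult replicates 1 and 2 or every replicate 2, and counting only genes at or above 0.1 of the passage 10 value.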

Additional observations from a re-analysis of the deposited data

Results flagged for a closer look

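The passage 10 library entered no comparison, and its values stood out against the other libraries. Incenp was at 26.9 FPKM and Kif11 at 14.2 FPKM there, while both were listed at 0 in all 20 other libraries. In all, 45 of the 47 mitotic genes were higher in the passage 10 library than in every adult library. That count and the next hold Incenp, Kif11 and the other genes under the filter, whose values at or near 0 in the adult set their side. Counting those at 4 FPKM or more in that library, this held for 43 of 45 mitotic genes (95.6%) and for 6052 of 8749 genes (69.2%). As 47.7% of those genes were recorded over 10 times lower at day 7 of passage 2, the count cannot be told apart from the change of gene list. Spc25 and Ska3, which were the exceptions, were at 4.51 and 6.40 FPKM in the passage 10 library. The library is single and was made against another gene list, so its difference from passage 2 was not tested.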

How the results depend on the processing

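Of 185 counts of called mitotic genes recomputed under an alternative, 162 stayed within 1.5 times the reported count. The counts of the comparisons with adult, E17.5 and E19.5 LG kept to this in every alternative run, except that E19.5 against E17.5 gave 1 in a fit of only those groups. Where adult replicates 1 and 2 were left out, 1 adult library remained, so those counts rest on no adult spread. The slope over culture days, at 26, was 15 with no filter, where 45 genes were tested, and 0 over days 7, 10 and 14 alone, where fewer libraries were fitted, and 1 to 28 when 1 library was left out. It was 1 without day 5 replicate 1, 3 without day 14 replicate 3, and 15 to 17 without day 5 replicate 2, day 7 replicate 2, day 10 replicate 3 or day 14 replicate 1. Day 14 against day 5, at 1, was 4 with a pseudocount of 0.1, and 0 when scaled to recovered reads, when only the groups compared were fitted and when every replicate 2 was left out. It was 24 with the replicate block, 26 with limma-voom and the block, 27 with all 20 libraries in the fit and 0 to 1 when 1 library was left out, 0 without either day 5 library or without day 14 replicate 2 or 3. Day 14 against day 7, at 0, was 6 with the replicate block, 21 with limma-voom and the block, 11 with all 20 libraries and 0 whenever 1 library was left out. The cause of these moves was not tested.

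Of 3940 values of named genes under an alternative, 3659 kept direction and side of the threshold, 162 no longer passed, 115 passed newly and 4 reversed. The 4 were Ska3 at day 14 against the adult, from -0.15 to 0.84 when scaled to recovered reads, 1.15 with limma-voom, 1.11 with limma-voom and the block, and 1.24 without adult replicates 1 and 2. With the block Kif22 was not called at E19.5 and Kif23 at day 5 against the adult, Plk1 was called at day 7 against E17.5, and no other call between spheres and LG or within LG changed. Genes near or under 0.5 FPKM, such as Kif22 and Kif23, rest on few reads.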
